A study of Homo sapiens with 12 samples.

Results

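The comparison described here set HAP1 cells given 4-thiouridine without light against untreated cells, by ribosome footprints on every gene. It used 6 of the 12 libraries of the study, 3 labelled 4SU and 3 labelled untreated, chosen by their labels alone. Of the 19580 genes in the deposited table, 11022 had at least 1 RPKM (reads divided by transcript length and by library total) in at least 3 of these 6 libraries and were tested. HAP1 is a near-haploid adherent human line derived from the leukaemia line KBM-7, recorded as wild type in all groups. The 4SU cells were grown with 5 uM 4-thiouridine (4SU) for 18 h, and the untreated cells received neither 4SU nor light. The other 6 libraries, 3 of cells given 4SU and then 6 kJ per square metre of UVA with 30 min of recovery (4SU+UVA) and 3 of cells given UVA alone, served to choose genes independently and to test where the effect of 4SU differed. The design text calls the libraries biological replicates, and the labels give no clone and no separate culture dates, and do not say how the dark samples were handled beside the irradiated ones.

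4SU is a uridine analogue that cells take up through nucleoside transporters, phosphorylate along the uridine salvage route and build into newly made RNA in place of uridine. It is widely used to label new transcripts. Once in RNA and exposed to UVA it crosslinks to proteins that touch it, so 4SU without light is the control that carries the nucleoside but is not irradiated. At high doses the nucleoside has been reported to disturb ribosomal RNA synthesis and to stress the nucleolus. In ribosome profiling, RNase I removes mRNA outside ribosomes and the fragments that ribosomes shield are counted, so footprint density depends on mRNA amount as well as on ribosomes per mRNA, which cannot be told apart here.

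Library depth was 3991129 reads for 4SU replicate 1, 4450172 for replicate 2 and 4514227 for replicate 3. It was 3785480, 5278490 and 5832366 reads for untreated replicates 1, 2 and 3. These totals were recovered from the steps of the RPKM values, as were the transcript lengths. The deposited table lists Ensembl identifiers, and the tables at hand pair none of them with a symbol. Genes are therefore given by identifier, no gene function is stated, and the markers of HAP1 and of other cell types were not checked.

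Footprints shifted widely but by small steps in 4SU cells. Density was higher at 1246 genes (11.3% of those tested) and lower at 357 (3.24%), 14.5% in either direction (limma on log2(RPKM + 0.5), Benjamini-Hochberg adjusted p under 0.05, n = 3 per group). The median change was 0.51 on the log2 scale among the genes that rose and -0.36 among those that fell. Of these, 425 rising and 47 falling genes moved by 1.5-fold or more, and 37 in all by 2-fold or more. The libraries of both groups did not overlap at 3986 genes (36.2% of those tested), with 4SU higher at 2833 (25.7%) and lower at 1153 (10.5%).

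The excess of rises over falls depended on the scaling. The median gene lay at 0.09 in 4SU relative to untreated cells on the log2 scale, and at -0.03 once library medians had been set equal. With median centring falls outnumbered rises, at 606 higher and 985 lower genes, among them 606 of the 1246 and all 357 of the genes above, and quantile normalisation narrowed it to 649 and 447. No gene called in the deposited scaling was called in the other direction under either. The count also changed when single libraries were left out. Each such fit has fewer libraries, which lowers power whichever library is left out. The median gene stayed between 0.07 and 0.11 in these fits. The count was 441 higher and 139 lower without 4SU replicate 1, 329 and 69 without 4SU replicate 2, and 1673 and 630 without 4SU replicate 3. It was 871 higher and 153 lower without untreated replicate 1, 385 and 62 without untreated replicate 2, and 410 and 73 without untreated replicate 3.

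**Figure D1:**
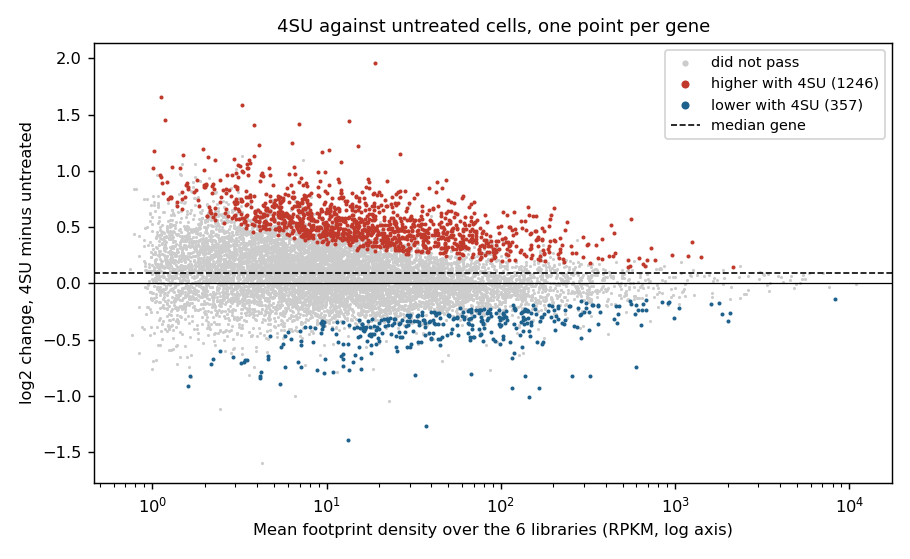
Each point is a gene, with its mean footprint density over the 6 libraries (RPKM, log axis) on the x axis and its log2 change, 4SU minus untreated, on the y axis. The 1246 genes called higher are red, the 357 called lower are blue, and the dashed line marks the median gene at 0.09.

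The genes that fell were more densely covered than those that rose. Their median density was 56.2 RPKM over the 6 libraries, against 15.8 RPKM for the rising genes and 11.4 RPKM for all genes tested. They held a median of 708 reads per library, against 174 for the rising genes and 152 for all genes. Small changes are easier to call where reads are many, and the smallest called change was 0.14 in size in both directions. The falling genes had a median transcript length of 2626 nt, close to the 2628 nt of all genes tested, whereas that of the rising genes was 2230 nt.

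Of the rising genes with a mean of at least 5 RPKM and no overlap between groups, ENSG00000198918 changed most. This 390 nt transcript had 43.7, 27.7 and 21.02 RPKM in 4SU replicates 1, 2 and 3, against 6.77, 7.77 and 7.03 RPKM in untreated replicates 1, 2 and 3. Every 4SU library lay above every untreated one, and replicate 1 was the highest of the 4SU libraries. The means were 30.8 ± 11.7 RPKM in 4SU cells and 7.19 ± 0.518 RPKM in untreated cells (SD, n = 3 each), a 3.89-fold rise (log2 1.96, SE 0.21, limma adjusted p = 0.0021). It rests on 68, 48 and 37 reads in the 4SU libraries, against 10, 16 and 16 in the untreated ones.

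The second was ENSG00000241360, 2012 nt long, at 21.05, 22.1 and 16.6 RPKM in 4SU replicates 1, 2 and 3, against 7.22, 5.74 and 8.18 RPKM in untreated cells. Here 4SU replicates 1 and 2 stood close together and replicate 3 below them, still above every untreated library. It averaged 19.9 ± 2.91 RPKM in 4SU cells and 7.05 ± 1.23 RPKM in untreated cells (SD, n = 3 each), 2.71-fold higher (log2 1.44, SE 0.15, limma adjusted p = 0.0021), from 151 to 198 reads per 4SU library against 55 to 96 per untreated library.

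Of the falling genes chosen in the same way, ENSG00000170315 changed most. With a transcript of 933 nt, it had 4.297, 9.15 and 8.55 RPKM in 4SU replicates 1, 2 and 3, against 16.1, 23.1 and 18.9 RPKM in untreated cells. Its 4SU libraries all lay below the untreated ones, with replicate 1 the lowest. The means were 7.33 ± 2.65 RPKM in 4SU cells and 19.4 ± 3.53 RPKM in untreated cells (SD, n = 3 each), and density fell by 1.397 on the log2 scale (SE 0.24, limma adjusted p = 0.0092). The 4SU libraries held 16, 38 and 36 reads, against 57, 114 and 103 in the untreated libraries.

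ENSG00000148773, with a long transcript of 11417 nt, showed how far the 4SU replicates could part. It had 11.1, 19.8 and 40.1 RPKM in 4SU replicates 1, 2 and 3, against 53.7, 49.5 and 49.4 RPKM in untreated cells. The untreated libraries agreed closely, while the 4SU libraries stretched from far below them to just below them. Counting error was small here, with 508, 1005 and 2067 reads in the 4SU libraries, against 2323, 2982 and 3287 in the untreated ones. Density averaged 23.7 ± 14.9 RPKM in 4SU cells and 50.9 ± 2.50 RPKM in untreated cells (SD, n = 3 each) and fell by 1.27 on the log2 scale (SE 0.34, limma adjusted p = 0.036). This call was lost without 4SU replicate 1 (log2 -0.84, limma adjusted p = 0.066), without 4SU replicate 2 (log2 -1.24, limma adjusted p = 0.11) and without any of the untreated libraries (limma adjusted p = 0.087, 0.093 and 0.09 without replicates 1, 2 and 3).

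**Figure D2:**
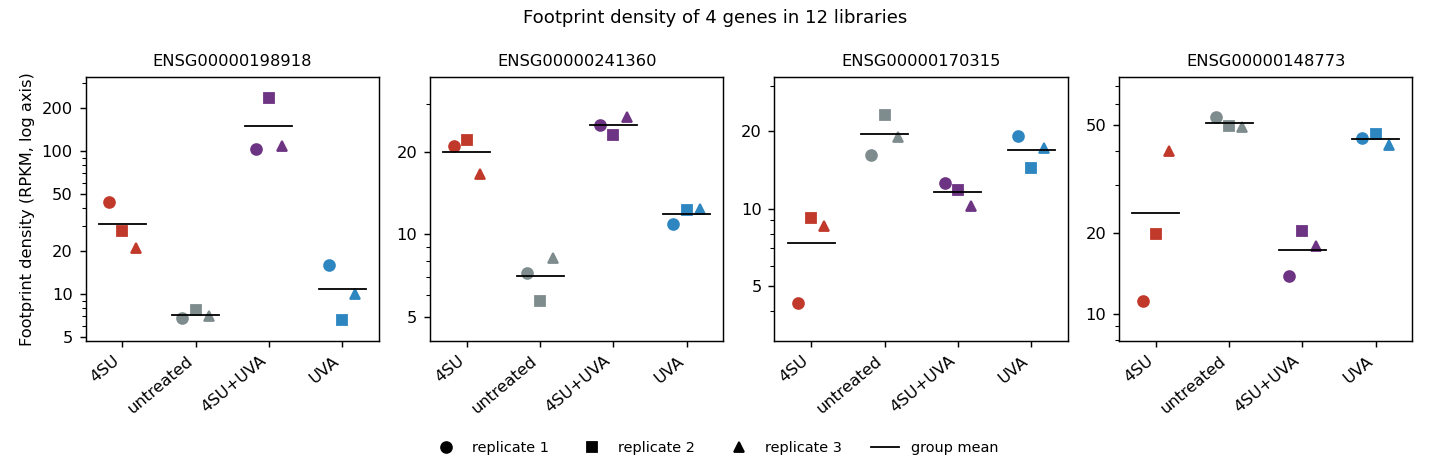
Footprint density (RPKM, log axes that differ between panels) of the 4 genes in all 12 libraries, with replicates 1, 2 and 3 as circles, squares and triangles and group means as lines. In ENSG00000148773 the 4SU libraries run from 11.1 to 40.1 RPKM, while the untreated libraries lie between 49.4 and 53.7 RPKM.

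The 4SU replicates differed in the size of their response, in the order 1, 2, 3 by most measures. Among the 3881 genes with a mean of at least 20 RPKM, 149 were at least 1.5-fold above and 97 at least 1.5-fold below the untreated mean in 4SU replicate 1. Replicate 2 had 134 such genes above and 28 below, and replicate 3 had 37 above and 9 below. Each untreated library, set against the mean of the other two, had 2 to 6 genes above and 2 to 4 below. The SD of these differences across genes was 0.30, 0.27 and 0.20 on the log2 scale in 4SU replicates 1, 2 and 3, against 0.15, 0.12 and 0.12 in untreated replicates 1, 2 and 3. These counts depended on the scaling in both directions. Relative to the median gene of its library, replicate 1 had 55 genes above and 190 below. On that scale replicate 2 had 69 above and 62 below, and replicate 3 had 23 and 15. Replicate 2 then had more genes above than replicate 1, so the order 1, 2, 3 held only for the genes below.

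Replicate 3 was also the weakest within the genes called. Of the 1246 rising genes, 833 (66.9%) had their smallest rise in replicate 3, 238 in replicate 2 and 175 in replicate 1. The largest rise was in replicate 1 at 590 genes, in replicate 2 at 505 and in replicate 3 at 151. Of the 357 falling genes, 235 (65.8%) fell least in replicate 3, and 203 fell most in replicate 1. Over the rising genes the median difference from the untreated mean was 0.56, 0.55 and 0.40 on the log2 scale in replicates 1, 2 and 3, and over the falling genes it was -0.42, -0.39 and -0.25. These libraries took part in choosing the genes, so the values describe them and test nothing.

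The replicates were next measured on genes chosen from other libraries. In 4SU+UVA against UVA, 3645 genes (33.1% of those tested) were higher and 2120 (19.2%) lower (limma, adjusted p under 0.05, n = 3 per group), and none of those 6 libraries belongs to the 4SU or untreated groups. Over the 3645 genes, the median difference from the untreated mean was 0.28 in 4SU replicate 1, 0.23 in replicate 2 and 0.14 in replicate 3 on the log2 scale. Each untreated library, against the other two, lay between -0.003 and 0.01 on the same genes. Over the 2120 genes the medians were -0.13, -0.12 and -0.06 in 4SU replicates 1, 2 and 3, and each untreated library lay within 0.002 of 0. The order of the 3 replicates was the same in both directions, and every 4SU library stood outside the range of the untreated ones.

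Relative to the median gene of its own library, the 3645 genes lay at 0.15, 0.14 and 0.08 in 4SU replicates 1, 2 and 3, and the 2120 genes at -0.26, -0.21 and -0.12. Among the 344 genes at least 2-fold lower in 4SU+UVA than in UVA, the median difference from the untreated mean, in the deposited scaling, was -0.38, -0.27 and -0.13. Of these genes 93.6%, 94.5% and 81.4% lay below the untreated mean in replicates 1, 2 and 3. Relative to the median gene the medians were -0.51, -0.36 and -0.18. The 437 genes at least 2-fold higher there had medians of 0.41, 0.38 and 0.26 in the deposited scaling. Relative to the median gene these were 0.28, 0.29 and 0.21, so replicate 2 then stood slightly above replicate 1. Of the 1246 genes higher with 4SU alone, 758 were higher in 4SU+UVA than in UVA (60.8% of the first list and 20.8% of the second) and 31 were lower. Of the 357 lower ones, 258 were lower there too (72.3% of the first list and 12.2% of the second) and 29 were higher. The 31 and 29 genes were 2.49% and 8.12% of their first lists. Over all genes tested, 33.1% were higher and 19.2% lower in 4SU+UVA than in UVA. With 4SU alone 11.3% of all genes were higher and 3.24% lower.

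**Figure D3:**
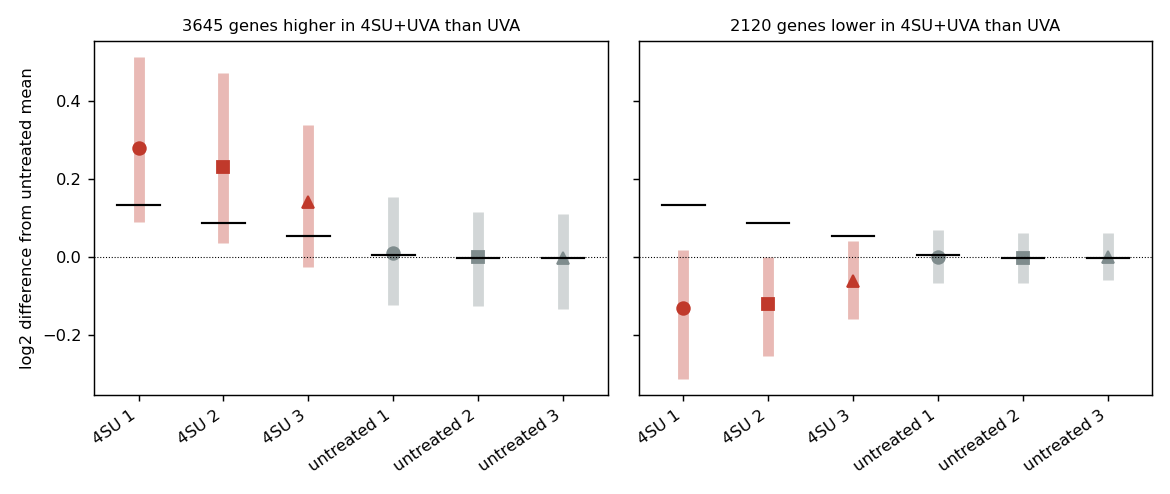
For each library, the symbol is the median and the bar the interquartile range across genes of the log2 difference from the untreated mean (for an untreated library, from the mean of the other two), over 3645 genes higher (left) and 2120 genes lower (right) in 4SU+UVA than in UVA, with a black line at the median of all genes tested. The medians of 4SU replicates 1, 2 and 3 are 0.28, 0.23 and 0.14 on the left and -0.13, -0.12 and -0.06 on the right.

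Subtracting untreated replicate 1 from 4SU replicate 1, 2 from 2 and 3 from 3 gives 3 sets of differences that share no library. Over the 3881 genes with a mean of at least 20 RPKM, these correlated across genes at r = 0.69 for pairs 1 and 2, 0.51 for pairs 1 and 3 and 0.66 for pairs 2 and 3. Over all 11022 genes the values were 0.43, 0.32 and 0.40. Genes are not independent replicates, and low genes carry more counting error, so these values describe the libraries only.

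Among densely covered genes, the change with 4SU was lower the longer the transcript. Genes were sorted into 5 equal classes by recovered transcript length, and separately into 5 by their average density in the 6 libraries. The 120 genes that were long (4672 to 23524 nt, the longest class) as well as abundant (at least 42.0 RPKM, the most abundant class) included 25 that fell (20.8%, against 3.24% of all genes tested) and 3 that rose (2.5%, against 11.3%). In the most abundant class as a whole, where changes are easier to call, 9.025% of genes fell and 13.65% rose. The median change of the 120 genes was -0.15, or -0.24 relative to the median gene. In 4SU replicates 1, 2 and 3 it was -0.32, -0.24 and -0.13 relative to the median gene of the library. Under median centring 60 of the 120 fell and 1 rose, where 985 and 606 of all 11022 genes did. Of the 2205 most abundant genes 562 fell under that scaling. Under quantile normalisation 20 fell and 3 rose (447 and 649 of all genes). Without the variance trend 5 fell and 1 rose (99 and 687 of all genes). With library quality weights and with voom on recovered reads 43 and 47 fell (604 and 560 of all genes). The number of the 120 that fell was 5 without 4SU replicate 1, 4 without replicate 2 and 52 without replicate 3. Over all genes it was 139, 69 and 630. Without untreated replicates 1, 2 and 3 it was 10, 4 and 6 of the 120, and 153, 62 and 73 of all genes. The median of the 120 stayed between -0.18 and -0.12 without any of these libraries.

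Within the most abundant class the median, relative to the median gene, was lower in each longer class, at -0.05, -0.08, -0.13, -0.18 and -0.24 over the 5 length classes. Replicates 1 and 2 each followed this order, and replicate 1 ran from -0.04 in the shortest class to -0.32 in the longest. Replicate 3 did not, at -0.059, -0.048, -0.051, -0.082 and -0.13, with only the 2 longest classes below the shortest. The next class by density, 16.5 to 42.0 RPKM, ran from 0.03 in the shortest to -0.16 in the longest class over the 3 replicates, and the middle class from 0.06 to -0.06. Over all densities 13.7% of the shortest and 5.94% of the longest class rose, while 3.27% and 3.72% fell. The medians of these classes were close, at 0.08 and 0.07, and the contrast in rises depended on the setting. In the shortest and longest class 301 and 131 genes rose as reported, but 269 and 322 with voom on recovered reads. Without the variance trend 130 and 114 rose. Under median centring it was 149 and 55, and under quantile normalisation 208 and 41. The 933 short abundant genes, up to 1467 nt, included 135 that rose (14.5%, against 11.3% of all genes tested) and 53 that fell (5.68%, against 3.24%). The whole most abundant class had 13.65% rising and 9.025% falling. The median of the 933 genes was 0.04, which turned to -0.08 under median centring and 0.03 under quantile normalisation.

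Among the 2205 least abundant genes, at most 3.55 RPKM, the median change was 0.17. Of these genes 114 rose (5.17%, against 11.3% of all genes tested) and 10 fell (0.454%, against 3.24%). Their median was 0.23, 0.20 and 0.13 in 4SU replicates 1, 2 and 3, with medians of 0.15 to 0.20 over the 5 length classes. These genes held a median of 30.5 reads per library, so few changes were detectable at this depth. Their direction held only in part, since the median was 0.05 under median centring and -0.01 under quantile normalisation. The classes were chosen with earlier results of these data known. The changes of their genes were counted without a test of the class, and only shares of reads were tested, as given below.

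**Figure D4:**
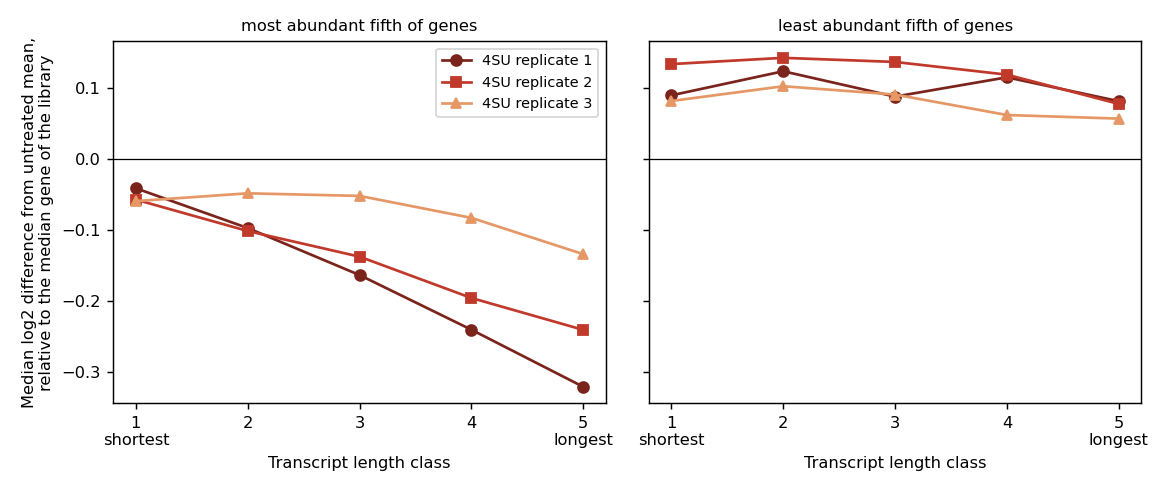
Median log2 difference of each 4SU replicate from the untreated mean, relative to the median gene of that library, over 5 classes of transcript length, in the most abundant (left) and the least abundant (right) class of genes. On the left replicate 1 runs down to -0.32 in the longest class, replicate 2 to -0.24 and replicate 3 to -0.13, and on the right all values lie between 0.06 and 0.14.

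The same genes can be read as a share of all footprints, which is scaled to the library total as RPKM is. The 120 long abundant genes took 5.93% of reads in 4SU replicate 1 (95% Wilson interval 5.90 to 5.95), 6.19% in replicate 2 (6.17 to 6.21) and 6.67% in replicate 3 (6.65 to 6.69). They took 7.09%, 7.10% and 7.11% in untreated replicates 1, 2 and 3, with intervals from 7.06 to 7.13 in all. These intervals count every read as separate. PCR copies are not separate molecules, so the intervals can be too narrow even for counting error, and they leave out variation between libraries. The 4SU libraries all lay below the untreated ones, at 6.26 ± 0.378% and 7.10 ± 0.0131% (SD, n = 3 each; exact permutation test, two-sided, p = 0.1, which is the lowest value that 3 against 3 allows, and adjusted p = 0.233 over 7 measures). This class and the length class tested below were chosen with earlier results of these data known, so their tests are not independent of them.

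The mean length of the transcript a read came from was 3036, 3064 and 3099 nt in 4SU replicates 1, 2 and 3, against 3134, 3110 and 3107 nt in untreated replicates 1, 2 and 3. The groups did not overlap, but 4SU replicate 3 lay just below the lowest untreated library (exact two-sided permutation test, p = 0.1, adjusted p = 0.233). The share of reads in the shortest length class was 27.1%, 26.5% and 25.5% in the 4SU libraries and 25.6%, 26.0% and 25.9% in the untreated libraries, groups that overlapped (exact two-sided permutation test, p = 0.4, adjusted p = 0.56).

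Replicates also spread more with 4SU than without it, mainly at abundant genes, where counting error is small. In the most abundant class the median SD over 3 libraries was 0.089 on the log2 scale with 4SU and 0.056 in untreated cells, with counting errors of 0.053 and 0.051, and 68.9% of genes had the larger SD in 4SU. In the least abundant class the median SD was 0.22 with 4SU and 0.21 in untreated cells, and 53.5% of genes had the larger SD in 4SU.

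Some genes set the 4SU libraries apart from each other. Of 3827 genes with at least 20 RPKM whose untreated libraries lay within 0.5 log2 units, 74 ranged over at least 1.5-fold among the 4SU libraries and 13 over at least 2-fold. Of these 13, 11 were lowest in replicate 1 and highest in replicate 3, and ENSG00000148773 had the largest range, 1.80 log2 units, with the next at 1.402. The 13 had a median transcript of 4018 nt, against 1922 nt for the 3827, and 6 of them were called lower and 0 higher (limma, 6 libraries). Of the 74, 16 were called lower and 1 higher, where the shares over all genes tested were 3.24% and 11.3%. All genes are not a like background here, since the most abundant class had 9.025% lower and 13.65% higher. A fit to the 3881 genes with at least 20 RPKM called 317 lower and 592 higher. The shares over the 3827 genes were not counted. The spread among 4SU libraries that chose these genes also enters that call. With the groups exchanged, 3 of 3715 genes ranged over at least 2-fold among untreated libraries. What set the 4SU libraries apart was not tested.

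Whether 4SU acted alike in dark and irradiated cells was tested as the 4SU effect with UVA minus the 4SU effect without it. It passed at 2839 genes (25.8%), 1208 higher (11%) and 1631 lower (14.8%) with UVA (limma, 12 libraries, adjusted p under 0.05). ENSG00000198918 had 103, 235 and 109 RPKM in 4SU+UVA cells, against 16.0, 6.62 and 10.004 RPKM in UVA cells, a log2 change of 3.69 (SE 0.32) where the dark change was 1.96. That difference of 1.73 passed (SE 0.46, limma adjusted p = 0.012).

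ENSG00000170315 had 12.6, 11.8 and 10.2 RPKM in 4SU+UVA cells, against 19.2, 14.4 and 17.2 RPKM in UVA cells. Its change of -0.53 (SE 0.13) was smaller in size than the dark change of -1.397, and the difference of 0.87 passed narrowly (SE 0.30, limma adjusted p = 0.048). The gene was picked for its large dark fall, which enters this difference and favours a smaller fall with light. ENSG00000148773, at 13.8, 20.2 and 17.8 RPKM in 4SU+UVA cells against 44.8, 46.5 and 42.1 RPKM in UVA cells, changed by -1.35 (SE 0.13) with light and by -1.27 in the dark, a difference of -0.08 (SE 0.41, limma adjusted p = 0.91). ENSG00000241360 changed by 1.04 (SE 0.10) with light and 1.44 in the dark, a difference of -0.40 that did not pass (SE 0.19, limma adjusted p = 0.14).

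**Figure D5:**
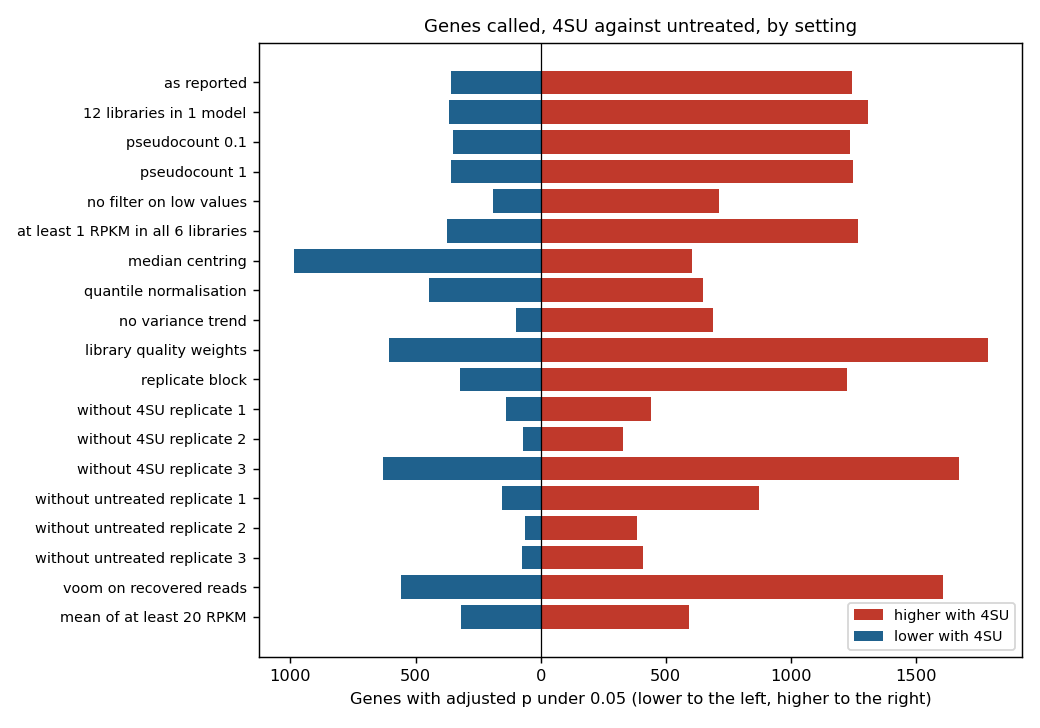
Number of genes with adjusted p under 0.05 in 4SU against untreated cells under each setting, with genes higher with 4SU drawn to the right and genes lower to the left of 0. The reported counts are 1246 and 357, and the counts without 1 library run between 329 and 1673 higher and between 62 and 630 lower.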

How the data were processed

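RPKM values of 19580 genes in 12 libraries, as deposited by the authors in a single table, are read counts scaled to transcript length and library size. The submitters' processing notes name STAR 2.7.10a and the build hg38; for the counting tool, annotation and filters, nothing is given in the sources used here. The RPKM steps gave back library totals, transcript lengths and read numbers (for all 15937 genes with a read, whole within 0.001 reads). Each length is the smallest that makes the reads whole and can be too short where reads are few.

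The comparison was fitted with limma 3.58.1 in R 4.3.3 on log2(RPKM + 0.5), using lmFit and eBayes with a trend, over the 3 4SU and 3 untreated libraries (4 residual degrees of freedom). Tests were two-sided, adjusted by Benjamini-Hochberg, with a threshold of 0.05. The added 0.5 understates the changes of low genes. The difference of the 4SU effects was fitted over all 12 libraries. Replicates carry no culture label beyond their number, so p-values measure the spread between these samples. Because no symbols could be paired, the naming rule (a mean of at least 5 RPKM, adjusted p under 0.05, no overlap between groups, 1053 rising and 341 falling genes eligible) printed the 2 largest changes each way, and gene lists and cell type markers were not analysed here. The alternatives were other pseudocounts, filters, scalings, weights, a replicate block, voom on recovered reads, a 12-library fit and leaving out each library. The fit and the recovery were tested on simulated data. That simulation gave both groups the same spread between replicates, so it does not cover the larger spread seen with 4SU. Classes and lists were chosen with earlier results of these data known.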

Additional observations from a re-analysis of the deposited data

Results flagged for a closer look

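The effect of 4SU differed between irradiated and dark cells at 2 of the 4 genes given by identifier, tested as the difference itself over 12 libraries. For ENSG00000198918 the 4SU effect was 1.73 log2 units larger with UVA (SE 0.46, limma adjusted p = 0.012), and every 4SU+UVA library lay above every 4SU library. For ENSG00000170315 the 4SU effect with UVA minus that without it was 0.87 (SE 0.30, limma adjusted p = 0.048), a smaller fall in irradiated cells. Both genes were picked for large dark changes, and the dark change is subtracted in this test. For ENSG00000170315 that selection favours a smaller fall with light, so its p-value is not free of it. No group held more than 3 libraries, so none was searched for a library far from the others.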

How the results depend on the processing

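The counts of 1246 higher and 357 lower genes moved to 711 and 191 with no filter on low values (15056 genes tested), to 606 and 985 under median centring, to 649 higher genes under quantile normalisation, and to 687 and 99 without the variance trend. Lower genes numbered 604 with library quality weights and 560 with voom on recovered reads. A floor of 20 RPKM, chosen after seeing the data, left 592 higher of 3881 genes tested. Without 1 library the counts ran from 329 to 1673 higher and from 62 to 630 lower. Fitting 12 libraries gave 1308 and 366, close to the reported counts, as did pseudocounts of 0.1 and 1. No alternative called a reported gene in the other direction. The difference of the 4SU effects was called at 2328 to 2794 genes without 1 library.

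Response medians of 4SU replicates 1, 2 and 3 under median centring were 0.12, 0.11 and 0.056 over the genes higher in 4SU+UVA than UVA and -0.29, -0.24 and -0.15 over the lower ones. Quantile normalisation gave 0.15 and 0.12 in replicates 1 and 2 and -0.22 and -0.19. Genes past 2-fold, in the deposited scaling, gave 0.41, 0.38 and 0.26, and -0.38, -0.27 and -0.13. The cause of these shifts was not tested. The call of ENSG00000148773 was lost in 7 of 18 alternatives, and those of the other 3 genes in none of 17.

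Replicate numbers are shared in the labels, but 4SU and untreated libraries of the same number did not deviate together (r = -0.03, -0.01 and 0.06 across genes). With the replicate block 1223 genes were higher and 321 lower, and the difference of the 4SU effects passed at 2796. Only replicate 3 correlated best with its own number.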

Other observations

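The 100 genes with the highest mean density took 17.0%, 17.3% and 17.0% of reads in 4SU replicates 1, 2 and 3, against 17.3%, 17.5% and 17.6% in untreated replicates 1, 2 and 3, groups that overlapped (exact two-sided permutation test, p = 0.2, adjusted p = 0.35 over 7 measures). A read was seen at 13494 to 13559 genes per library with 4SU and at 13296 to 13555 in untreated cells.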
